A study of Mus musculus with 44 samples.

Results

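The genes described here are Rgs5, Higd1b, Olfr558, Stum, Kcnj8, Abcc9, Ndufa4l2, Mcam, Cspg4 and Esam, 10 of the 55486 genes counted in sorted mouse mammary fibroblasts. They were chosen from measured values of the same libraries, by their counts in CD26-negative against CD26-positive cancer-associated fibroblasts (CAFs), under the working name of pericyte-restricted genes absent from CD26-positive CAFs. That contrast is therefore given as a description with no test, and the tests concern normal fibroblasts (NFs), the tumor model, the En1 sort and the variation between single mice.

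Pericytes wrap the capillary endothelium and, with vascular smooth muscle cells, form the mural cells of the vessel wall. They regulate capillary diameter and stabilize vessels, and in tumors their coverage of the vessels is often irregular. Rgs5 encodes a regulator of G-protein signaling, and Kcnj8 and Abcc9 encode Kir6.1 and SUR2, the pore and the sulfonylurea receptor of the vascular ATP-sensitive potassium channel. Higd1b and Ndufa4l2 encode small mitochondrial proteins, and Ndufa4l2, a paralog of Ndufa4, is induced by hypoxia-inducible factor. Mcam (CD146), Cspg4 (NG2 proteoglycan) and Esam encode cell surface proteins, Olfr558 encodes a receptor of the olfactory family, and Stum encodes a membrane protein named after a Drosophila mechanosensing gene.

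Recipients were female En1-Cre;mTmG mice, whose mTmG parents had been backcrossed to FVB/n, in which cells of the En1 lineage carry membrane GFP and other cells membrane Tomato. They received mammary tissue of control, WB1P or WB1P-Myc donors without clearing of the fat pad, so that host epithelium remained. WB1P tissue carried WapCre;Brca1F/F;Trp53F/F, in which a milk protein promoter drives Cre in epithelium, WB1P-Myc tissue added Col1a1-invCAG-Myc-IRES-Luc, and control tissue had no WapCre. The study describes control donors of the genotype Cdh1F/F;PtenF/F for such recipients, while the sample titles call the controls wildtype. The study describes the tumors as end stage, and its methods call WB1P and WB1P-Myc tumors of 8 × 8 mm advanced. The mark 8x8 on 2 WB1P-Myc mice, numbers 23 and 69, matches that earlier size, but the labels do not explain it. Fibroblasts negative for EpCAM, CD49f, CD31 and CD45 were sorted by GFP and CD26 into EN1+, CD26+, +/+ and -/- populations. The gate held no marker directed at pericytes, and whether it removed some of them was not tested.

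The table held 44 libraries of 13 mice, of which 12 libraries of 3 mice were controls (NFs), 16 of 5 mice WB1P and 16 of 5 mice WB1P-Myc. Library totals ran from 5790599 to 15240328 counts with a median of 12818093. Values are CPM, counts scaled to the library total, with the EN1+ and -/- libraries of a mouse summed as CD26-negative and the CD26+ and +/+ libraries summed as CD26-positive. There were 10 CD26-negative CAF mice, 9 CD26-positive CAF mice and 3 NF mice of each class. Control labels carry a pair of mouse numbers, each pair was counted as 1 mouse, and whether tissue was pooled is not stated.

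The sort could be read in its own genes. Dpp4, which encodes CD26, lay between 0.619 and 17.6 CPM over the CD26-negative CAF mice and between 222.8 and 545.5 CPM over the CD26-positive ones. En1 was higher in the EN1+ than in the -/- library in 7 of the 7 CAF mice with both libraries and in 3 of 3 NF mice. Of the 10 CD26-negative CAF mice, 3 had a single CD26-negative library: WB1P mouse 10 (EN1+) and WB1P-Myc mice 21 and 95 (-/-). These were also the 3 mice with the most Rgs5, so results that rest on them are given with and without them. They were high within their sort as well: 2281 CPM in EN1+ of mouse 10 against 407.6 to 635.4 in the other WB1P EN1+ libraries, and 4791 and 2394 in -/- of mice 21 and 95 against 1345 to 1643 in the other WB1P-Myc -/- libraries. Among the CD26-positive CAF mice, WB1P mouse 12 and WB1P-Myc mice 67 and 95 had a single CD26-positive library (+/+). That of mouse 12 was the shallowest of all, at 5790599 counts.

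Whether a gene is absent can be asked only where counts reach 0. In CD26-positive CAFs, Higd1b, Olfr558 and Stum had 0 counts in 6 of 9 mice each, with 9, 4 and 3 counts over all 9. A count of 0 allows up to 0.106 CPM in the deepest of these mice and 0.518 CPM in the shallowest, by counting error alone. Rgs5 lay between 1.24 and 10.9 CPM with a median of 3.45, Esam between 0.816 and 2.42 with a median of 1.29, and Mcam between 2.05 and 21.1 with a median of 4.71. Rgs5, Esam and Mcam were therefore low but had counts in all 9 CD26-positive CAF mice.

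The other 4 genes had higher levels there, also in every mouse. Abcc9 lay between 55.3 and 195.4 CPM with a median of 131.8, Kcnj8 between 18.8 and 51.9 with a median of 38.9, Cspg4 between 14.8 and 79.1 with a median of 31.2, and Ndufa4l2 between 7.75 and 212.8 with a median of 50.1. The word absent thus does not hold for these 4 genes or for Rgs5, Esam and Mcam, only Higd1b, Olfr558 and Stum came near it, and whether any of the 10 is restricted to pericytes cannot be read from sorted pools.

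In the contrast that chose the genes, every CD26-negative CAF mouse lay above every CD26-positive one for 8 of 10 genes, as for 4.88% of the 16601 genes kept by the low-count filter, and nothing is read from that count. Kcnj8 and Ndufa4l2 overlapped, and within single mice each was higher in the CD26-negative cells in 7 of 9. Cspg4 was separated only just, its lowest CD26-negative mouse at 79.6 CPM and its highest CD26-positive mouse at 79.1. The 10 log2 fold changes had a median of 5.67, from 0.53 for Ndufa4l2 to 9.18 for Higd1b, and the fitted values of Higd1b, Olfr558 and Stum depend on how counts near 0 are handled. In bulk libraries, fewer cells of a type and less RNA per cell cannot be told apart.

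Per kilobase of exon, Rgs5 led in CD26-negative CAFs with a mean level of 363.96 CPM per kb, followed by Mcam at 171.1, Ndufa4l2 at 97.8 and Abcc9 at 72.8. Kcnj8 at 37.2, Higd1b at 33.5, Cspg4 at 33.1, Esam at 19.1, Olfr558 at 6.29 and Stum at 1.57 CPM per kb came after these. Over mice the levels per kb ran from 124.3 to 1054 for Rgs5, 58.3 to 347.9 for Mcam, 48.8 to 188.0 for Ndufa4l2 and 27.9 to 257.3 for Abcc9. Neighbors in this order overlapped throughout, so the order is one of means. The order differed in CD26-positive CAFs, where Ndufa4l2 led at a level of 61.9 CPM per kb, before Abcc9 at 15.4 and Kcnj8 at 14.0, and Rgs5 was at 0.947.

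**Figure D1:**
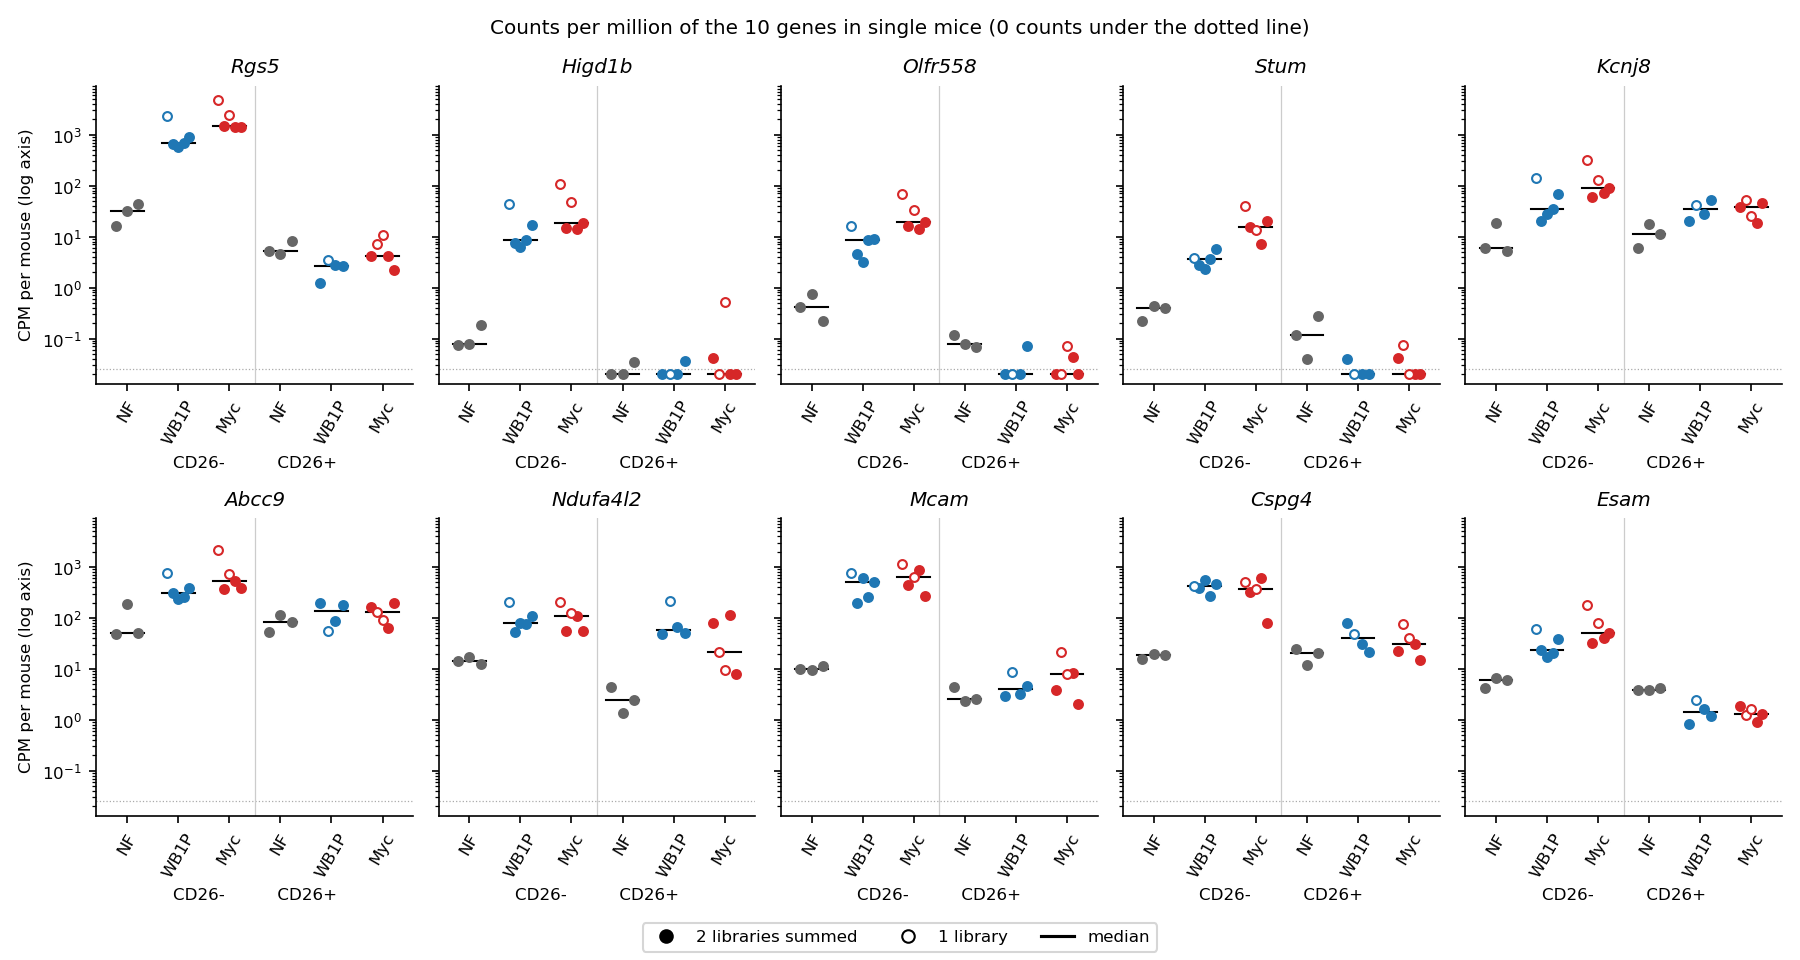
CPM of the 10 genes on a log axis, a point per mouse, for NF, WB1P and WB1P-Myc mice in CD26-negative and CD26-positive cells; open points are mice with 1 library, bars are medians, and 0 counts sit under the dotted line. Rgs5 lies between 565.3 and 4791 CPM in CD26-negative CAFs and between 1.24 and 10.9 CPM in CD26-positive CAFs, while Kcnj8 and Ndufa4l2 overlap between the classes.

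The first question was how the genes stood in normal tissue, in libraries that did not enter the choice. CD26-negative NFs had 16.0, 31.9 and 42.8 CPM of Rgs5 in mice 82, 49 and 44, and CD26-positive NFs had 5.14, 4.60 and 8.14 CPM. All 3 CD26-negative values lay above all 3 CD26-positive ones. Ndufa4l2 had 14.5, 17.3 and 12.6 CPM against 4.34, 1.39 and 2.44, and Mcam had 9.89, 9.72 and 11.6 against 4.34, 2.38 and 2.58, again without overlap. With Higd1b and Olfr558, on few counts, 5 of 10 members were free of overlap, against 13.4% of all genes. Higd1b and Olfr558 passed the low-count filter only through the CD26-negative CAFs, so nothing is read from a count that holds them. Kcnj8, Abcc9 and Cspg4, in contrast, overlapped between the CD26 classes of NFs, as did Stum and Esam.

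By edgeR's quasi-likelihood test of 16601 genes, with a limit of 0.05 for the adjusted p, 1 of 10 members was higher in CD26-negative NFs, against 1.49% of all genes. It was Rgs5, with a log2 fold change of 2.26 ± 0.57 (SE), an adjusted p of 0.0230, and a higher value in 3 of 3 mice. At an unadjusted p under 0.05 there were 4 members, and 14.1% of all genes. The call was lost without any of the 3 control mice and in a fit on the NFs alone (0 members each), while the log2 fold change of Rgs5 stayed at 2.49, 2.05 and 2.23 without mouse 82, 49 or 44 and at 2.26 (adjusted p 0.0524) in the NFs alone. With mouse as a block, which pairs the classes, 4 members passed (Rgs5, Olfr558, Ndufa4l2 and Mcam), and 5.83% of all genes were higher. Olfr558, also among the 4 at an unadjusted p under 0.05, had 36 counts in CD26-negative and 7 in CD26-positive NFs. It passed the low-count filter only through the CD26-negative CAFs, so nothing is read from its call. DESeq2's Wald test called 2 (Rgs5 and Ndufa4l2), beside 2.55% of all genes. Genes of other cell types also differed between the CD26 classes of NFs. Acta1 (skeletal muscle), Cidec and Lep (adipocyte) and Myh11 (smooth muscle) were higher in CD26-negative NFs. Tek was lower, as the 1 of 10 endothelial genes past the limit, while the median log2 fold change of that list was 0.396. Of 17 pericyte genes other than the members, Des was higher, Anpep was lower and 15 did not pass. The summed endothelial level was 52.2 to 85.2 CPM in CD26-negative and 190.6 to 550.4 in CD26-positive NFs. The part of all these genes in the difference of Rgs5 was not tested.

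The next question was how CD26-negative fibroblasts of tumors differed from those of normal glands. These comparisons share their CAF libraries with the contrast that chose the genes, and both models share the same 3 NF mice. Rgs5 had 2281, 657.3, 565.3, 694 and 890.4 CPM in WB1P mice 10, 93, 12, 14 and 35. It had 4791, 1460.2, 2394, 1410.2 and 1402 CPM in WB1P-Myc mice 21, 67, 95, 23 and 69. Every CAF mouse lay far above the highest NF mouse, and mice 21, 95 and 10 stood above the rest.

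Of the channel genes, Kcnj8 had 5.99, 18.2 and 5.30 CPM in NF mice 82, 49 and 44, then 140.3, 20.2, 27.1, 34.1 and 69.7 in the WB1P mice. It had 311.3, 58.5, 126.8, 71.7 and 88.5 CPM in the WB1P-Myc mice. WB1P and NF values did not overlap, but NF mouse 49 lay close under WB1P mouse 93. Abcc9 had 48.7, 188.7 and 49.9 CPM in the NF mice, from 233.9 to 752.3 in WB1P and from 372.5 to 2155 in WB1P-Myc, and its high NF mouse was again number 49.

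Surface genes separated widely. Cspg4, at 15.7, 18.9 and 19.5 CPM in NF mice 82, 44 and 49, had 422.2, 388.0, 542.6, 271.2 and 459.1 in WB1P mice 10, 93, 12, 14 and 35. It had 498.4, 317.1, 374.1, 595.8 and 79.6 CPM in WB1P-Myc mice 21, 67, 95, 23 and 69. Both models lay above the NFs without overlap, and mouse 69 stood apart as the lowest of the 10 CAF mice. Mcam rose from 9.72 to 11.6 CPM in NFs to between 195.2 and 765.3 in WB1P and between 272.3 and 1165 in WB1P-Myc, and Esam from 4.20 to 6.48 CPM to between 16.9 and 60.3 and between 31.9 and 182.9.

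Of the mitochondrial genes, Ndufa4l2 moved from 12.6 to 17.3 CPM in NFs to between 53.5 and 205.9 in WB1P and between 54.3 and 204.4 in WB1P-Myc. Higd1b moved from 0.0749 to 0.183 CPM, 9 counts over 3 mice, to between 6.13 and 43.3 and between 14.0 and 108.2. Olfr558 had 0.219 to 0.750 CPM in NFs, then 3.12 to 15.9 and 14.2 to 68.2, and Stum 0.225 to 0.434 CPM, then 2.29 to 5.80 and 7.06 to 40.6. No gene overlapped with NFs in either model, as for 14.4% of all genes in WB1P and 18.9% in WB1P-Myc, and because the same CAF libraries chose the genes nothing is read from that.

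Higd1b, Olfr558 and Stum passed the filter on low counts only through the CD26-negative CAFs and so had to differ, and they are set apart here. The other 7 passed the filter in each of the 6 groups alone. Each of these 7 was past the limit in WB1P, where 17.6% of all genes were higher, and in WB1P-Myc, where 19.1% were. Their log2 fold changes ran from 2.15 ± 0.64 (SE) for Abcc9 to 5.60 ± 0.70 for Mcam in WB1P (median 2.94, all genes 0.00198). In WB1P-Myc they ran from 2.84 ± 0.80 for Ndufa4l2 to 6.21 ± 0.66 for Rgs5 (median 3.75, all genes 0.02). The CAF libraries had a share in the choice of the genes, so neither the number past the limit nor an adjusted p is support, and both are given as a description. The adjusted p of Rgs5 was 1.98e-06 in WB1P and 6.51e-07 in WB1P-Myc, and that of Abcc9 0.0117 and 0.00134. Abcc9 was no longer past the limit in WB1P without control mouse 82 or control mouse 44, while the rest stayed past it.

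Other genes of mural cells varied in direction. Of 17 further pericyte genes, 8 were higher in WB1P CD26-negative CAFs, Notch3, Cox4i2, Gja4, Rgs4, Des, Aoc3, Trpc6 and Gja5, and 2 were lower, Vtn and Lamc3. In WB1P-Myc the counts were 8 and 1. Pdgfrb, the receptor that recruits pericytes and the most abundant gene of the list, was past the limit in neither model, at 688.4 to 1410.5 CPM in NFs and 747.0 to 2065 in the WB1P mice. Lamc3, a laminin chain, had 537.4 to 840.9 CPM in NFs and 5.03 to 58.7 in the CD26-negative CAF mice. The summed level of the list was 2511 to 3021 CPM in NFs and 1892 to 6626 CPM in CD26-negative CAFs, highest in mouse 21.

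Smooth muscle genes stood beside these. Of 9 tested, Acta2, Myh11, Tagln, Cnn1, Lmod1, Myocd, Synpo2 and Actg2 were higher, 8 in each model. Their list of 10, led by Acta2, summed to 220.9 to 407.6 CPM in NFs and 1052 to 3067 in CD26-negative CAFs, and Pln was at 0 in 4 of 10 mice. Fibroblast genes did not rise with them as a group: of 8, led by Col1a1, 2 were higher and 3 lower in WB1P, and 0 higher and 3 lower in WB1P-Myc. Pdgfra, Dcn and Lum were the lower ones, and the summed fibroblast level of 45262 to 69123 CPM in CD26-negative CAFs spanned the 46586 to 59068 CPM of NFs. The part of these lists in the rise of the members was not tested.

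Markers of cells that the gate should remove were low. The 10 endothelial genes summed to 23.2 to 97.2 CPM over the CD26-negative CAF mice, against 52.2 to 85.2 in NFs. They were led by Emcn, which was higher in both models, while 6 of 10 were lower in WB1P and 3 of 10 in WB1P-Myc. Mouse 21 was the highest, with 58.4 CPM of Emcn, 7.84 of Pecam1 and 7.84 of Cdh5, and Cldn5 was at 0 in 1 of the 10 mice, number 10. The 8 immune genes, led by Lyz2, summed to 13.8 to 95.1 CPM, against 21.7 to 27.3 in NFs and again highest in mouse 21. Of these, 3 were higher in each model (Adgre1, Csf1r and Tyrobp), and 1 was lower in WB1P (Cd79a).

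The 7 epithelial genes, led by Itga6, summed to 31.2 to 226.8 CPM against 30.3 to 77.5 in NFs, with Epcam at 0 in mouse 21 and Krt5 at 0 in 3 mice. Itga6, the gene of the gate marker CD49f, was the 1 of 7 past the limit, higher in WB1P-Myc. It had an r of 0.798 with the members' mean over the CD26-negative CAF mice. Over the 7 mice with both CD26-negative libraries this r was 0.562. For the other epithelial genes r over all these mice ran from -0.588 (Epcam) to 0.184 (Krt5). The 4 Schwann genes, led by S100b, summed to 8.25 to 57.4 CPM, highest in mouse 95, against 8.13 to 14.8 in NFs. The 4 adipocyte genes, led by Plin1, reached 11.8 CPM with Lep at 0 in 8 of 10 mice, against 2.36 to 10.9 in NFs, and 2 were lower in each model (Cidec and Lep). The 4 skeletal muscle genes, led by Acta1, reached 70.0 CPM with Ckm at 0 in 6 mice, against 60.5 to 290.8 in NFs, and 1 was lower in WB1P (Tnnt3) and 4 in WB1P-Myc. All 4 proliferation genes, led by Mki67, were higher in both models, at a summed 114.7 to 397.9 CPM. Mouse 21 and mouse 95, high in Rgs5, were thus also high in Emcn, at 58.4 and 24.1 CPM, while mouse 10 was not, at 6.04, and the part of these markers in the differences between mice was not tested.

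Relatives of the members gave a further view. Kcnj11 and Abcc8, the pancreatic K-ATP pair, were at 0 in 9 and 8 of 10 CD26-negative CAF mice, so the channel genes counted were Kcnj8 and Abcc9. Of 7 tested genes of the R4 group of RGS proteins, short regulators of G-protein signaling to which Rgs5 belongs, 5 were higher in WB1P (Rgs3, Rgs4, Rgs5, Rgs8 and Rgs16) and 6 in WB1P-Myc, with Rgs1 added. Rgs2 was lower in both. Of 9 targets of hypoxia-inducible factor beside Ndufa4l2, 8 were higher in WB1P and 5 in WB1P-Myc. They were led by Ldha, at a summed 719.1 to 1025.9 CPM in NFs and 989.02 to 2313 in CD26-negative CAFs. Of 3 tested relatives of Ndufa4l2 and Higd1b, led by Ndufa4, 2 were higher in WB1P (Higd1a and Higd2a) and 1 in WB1P-Myc (Higd2a), and Higd1c was at 0 in 10 mice. Of 4 PDGF ligand and receptor genes (Pdgfb, Pdgfd, Pdgfrb and Pdgfra), Pdgfrb was the most abundant. In WB1P 0 were higher and 1 was lower (Pdgfra, also in the fibroblast list). In WB1P-Myc 1 was higher (Pdgfb) and 1 lower (Pdgfra).

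The third question was whether the tumor models differed. Stum was the only member free of overlap, with 3.87, 2.83, 2.29, 3.71 and 5.80 CPM in WB1P mice 10, 93, 12, 14 and 35 and 40.6, 15.5, 13.7, 7.06 and 20.2 CPM in WB1P-Myc mice 21, 67, 95, 23 and 69. Every WB1P-Myc mouse lay above every WB1P mouse, and mouse 10, high for Rgs5, was among the others for Stum. Such separation was found for 1 of 10 members and for 3.39% of all genes. Olfr558 came next, with 14.2 to 68.2 CPM against 3.12 to 15.9 CPM, so that only mouse 10 reached into the WB1P-Myc range.

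Stum was also the 1 member of 10 past the limit by edgeR's test, against 0.205% of all genes, with a log2 fold change of 2.23 ± 0.39 (SE) and an adjusted p of 0.0204. Olfr558 had a log2 fold change of 1.72 ± 0.43 with an adjusted p of 0.0720, Esam 1.10 ± 0.37 with 0.17, Rgs5 1.01 ± 0.42 with 0.265, and Ndufa4l2 -0.10 ± 0.61 with 0.957. The members' median was 1.01 and that of all genes 0.03, with 8 of 10 positive and 4 at an unadjusted p under 0.05, as 14.5% of all genes were. These are tests of the difference between the models themselves.

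The fold change of Stum stayed positive in every setting, but its adjusted p lay near the limit. It was between 0.0521 and 0.0660 without WB1P mouse 93, 12 or 14 or WB1P-Myc mouse 21 or 69, with log2 fold changes of 1.81 to 2.23. Without the 3 mice with a single CD26-negative library Stum had 1.88 (adjusted p 0.133), in a fit on the compared groups 2.23 (0.0652) and in the -/- libraries alone 1.90 (0.0744), and no member passed in any of these. Stum passed in the EN1+ libraries alone (2.23, adjusted p 0.0105) and without the mice marked 8x8 (2.46, 0.0165). Stum and Olfr558 both passed without WB1P-Myc mouse 23, with the replicate block in limma-voom (0.114% of all genes higher) and with DESeq2's Wald test (1.05%). Smtn was the 1 smooth muscle gene lower in WB1P-Myc, 0 of 17 pericyte genes passed, and Emcn was the 1 endothelial gene that was higher. Slc2a1 was the 1 of 9 hypoxia targets that was lower. For the other 9 members a difference between the models was not shown, which does not show that they were alike.

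In CD26-positive fibroblasts the members split. The CAF libraries here are an arm of the contrast that chose the genes, which favors low values in them. Kcnj8 had 11.1, 17.7 and 5.95 CPM in NF mice 44, 49 and 82, all below the 18.8 CPM of the lowest CAF mouse. Ndufa4l2 had 2.44, 1.39 and 4.34 CPM, below its lowest CAF mouse at 7.75. Esam had 4.27, 3.77 and 3.88 CPM, above its highest CAF mouse at 2.42. So 2 of 10 members, Kcnj8 and Ndufa4l2, were higher in CAFs with no overlap, against 7.78% of all genes, and 1, Esam, was lower, against 16.2%, while Abcc9, Cspg4, Mcam and Rgs5 overlapped.

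By edgeR's test, 2 of 10 members were higher in CD26-positive CAFs, against 20.1% of all genes, and 2 lower (Esam and Stum), against 21.1%, a share near the background. Stum passed the filter on low counts only through CD26-negative CAFs and had 12 counts in NFs and 3 in CAFs here, so nothing is read from its call. Kcnj8 had a log2 fold change of 1.76 ± 0.59 (SE) with an adjusted p of 0.0209, and Ndufa4l2 one of 4.72 ± 0.89 with 0.000336. Esam fell by 1.38 ± 0.40 with an adjusted p of 0.0097, in the direction the choice favored, so nothing is read from its call. Only Kcnj8 and Ndufa4l2 passed with the replicate block in limma-voom, and only Ndufa4l2 and Esam without control mouse 44. Without control mouse 82 Kcnj8 did not pass. In a fit on the compared groups Stum was removed by the filter on low counts and was not tested. Cspg4 passed as well with DESeq2's Wald test and without WB1P mouse 14 or 35, and Cspg4 and Mcam both passed without WB1P-Myc mouse 69 or without the 2 mice marked 8x8. Of the hypoxia targets listed beside Ndufa4l2, 8 of 9 were higher in CD26-positive CAFs too. Among the 17 pericyte genes 7 were lower, Pdgfrb and Notch3 among them, and 1 was higher (Rgs4). Among 9 smooth muscle genes 4 were higher (Acta2, Tagln, Cnn1 and Actg2) and 1 was lower (Myh11). Of 10 endothelial genes 6 were lower (Cdh5, Tek, Tie1, Emcn, Cldn5 and Vwf), with a sum of 70.5 to 173.9 CPM in CD26-positive CAFs against 190.6 to 550.4 in NFs. All 4 proliferation genes were higher, and the part of these genes in the changes of Esam, Kcnj8 and Ndufa4l2 was not tested.

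How the genes varied together was followed over the 10 CD26-negative CAF mice. Rgs5 spanned a factor of 8.48 from the lowest to the highest mouse, Higd1b 17.6, Olfr558 21.8, Stum 17.8, Kcnj8 15.4, Esam 10.8 and Abcc9 9.21. Mcam spanned 5.97, Cspg4 7.48 and Ndufa4l2 3.85. Mouse 21 ranked first for 8 of 10 genes, mouse 10 for Ndufa4l2 and mouse 23 for Cspg4. Mice 14 and 93, both WB1P, were among the lowest 3 for 9 of 10 genes each. The order of mice was thus shared by most genes, with Cspg4 the clearest exception.

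**Figure D2:**
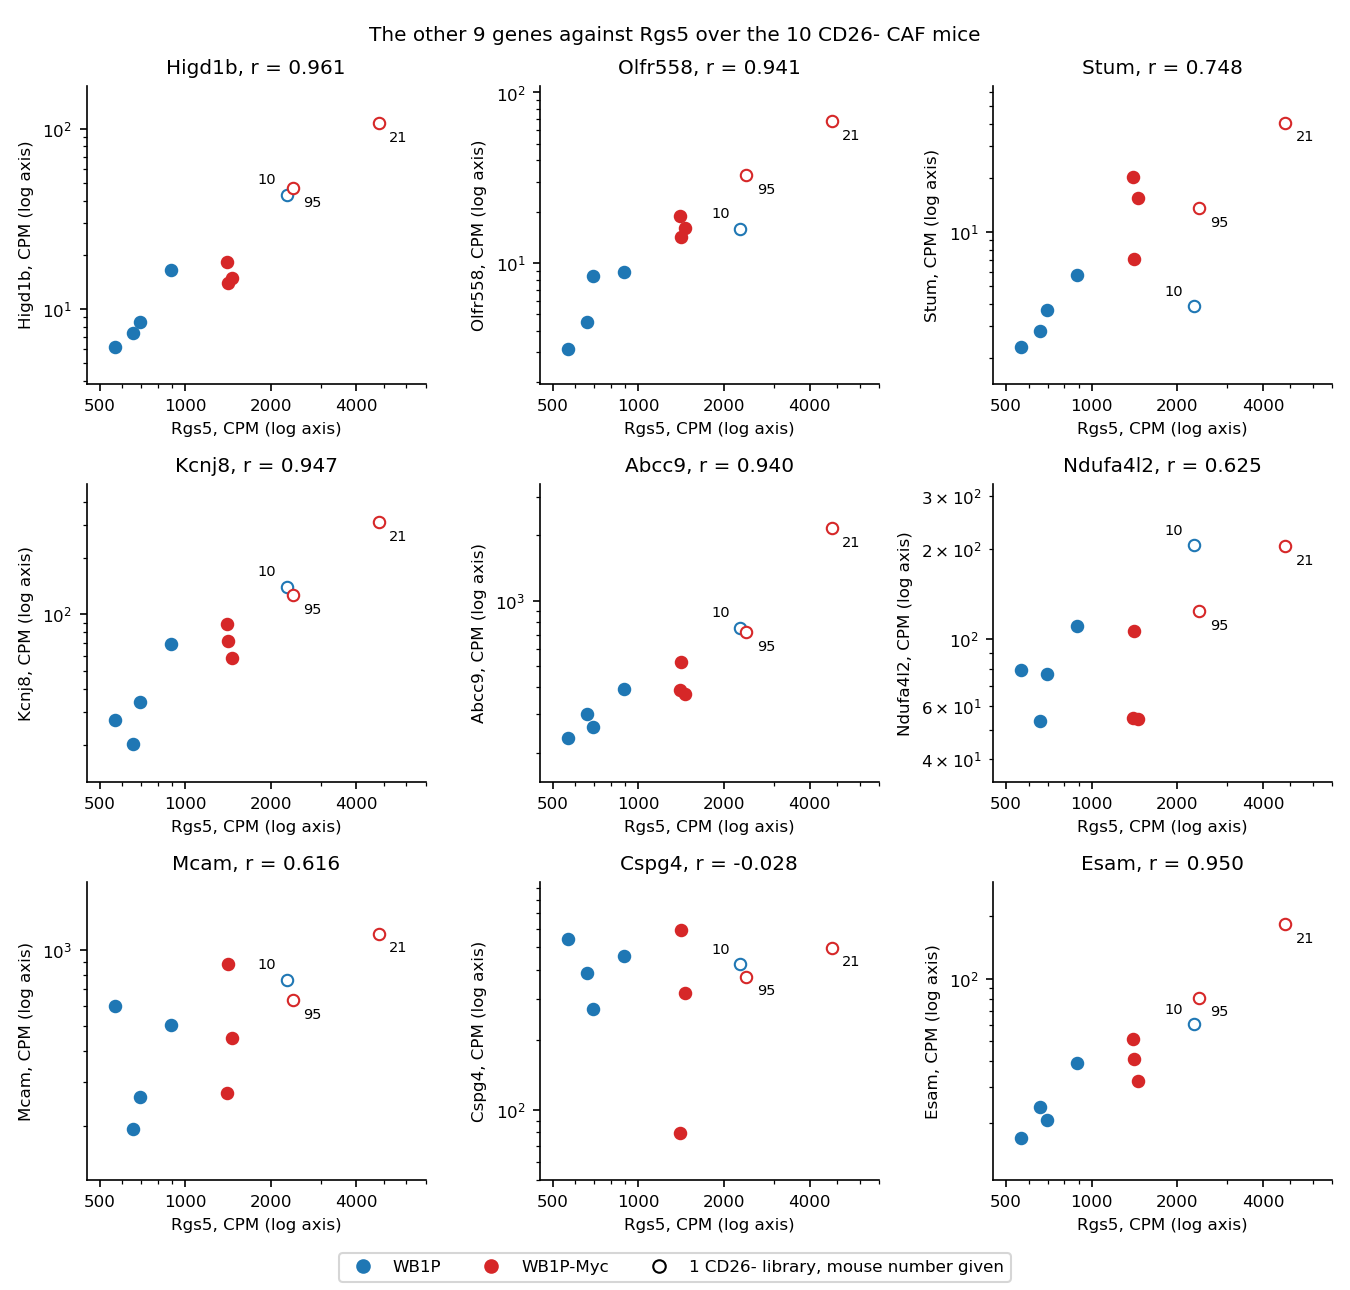
CPM of the other 9 genes against CPM of Rgs5, both on log axes, a point per CD26-negative CAF mouse, blue for WB1P and red for WB1P-Myc; open points with a number are mice with a single CD26-negative library. Higd1b, Kcnj8 and Esam follow Rgs5 closely (r of 0.961, 0.947 and 0.950), while Cspg4 does not (r of -0.028).

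Correlations of log2 CPM with Rgs5 were computed for 9 genes. Pearson's r was 0.961 for Higd1b (permutation p 5e-05, Spearman's rho 0.891, p 0.00116) and 0.941 for Olfr558 (p 8e-05, rho 0.891, p 0.00115). The channel genes had r of 0.947 for Kcnj8 (p 7e-05, rho 0.879, p 0.0016) and 0.940 for Abcc9 (p 4e-05, rho 0.915, p 0.00052), and Esam had 0.950 (p 5e-05, rho 0.903, p 0.00083). These 5 rose and fell with Rgs5 from mouse to mouse.

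The other 4 followed less or not at all. Stum had r of 0.748 (permutation p 0.0134, rho 0.721, p 0.0235), Ndufa4l2 0.625 (p 0.0536, rho 0.564, p 0.0949), Mcam 0.616 (p 0.0594, rho 0.552, p 0.105) and Cspg4 -0.028 (p 0.944, rho -0.164, p 0.656). Stum was low in mouse 10, where Rgs5 was high, and over the 7 mice with both CD26-negative libraries its r was 0.898. In these 7 mice Rgs5 and Stum each separated by model, so that r also holds the difference between the models. Centred within models, over 10 mice, it was 0.537. Of the pericyte surface genes, Esam thus moved with Rgs5 while Mcam and Cspg4, long used as pericyte antigens, did so weakly or not.

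The relation did not rest on a single mouse, but its strength did on few. Without the 2 mice farthest from the median of Rgs5, numbers 21 and 12, r was 0.907 for Higd1b, 0.868 for Olfr558, 0.885 for Kcnj8, 0.885 for Abcc9, 0.875 for Esam and 0.425 for Stum. Over the 7 mice with both CD26-negative libraries it was 0.840 for Higd1b, 0.923 for Olfr558, 0.812 for Kcnj8, 0.793 for Abcc9 and 0.815 for Esam. Over the same 7 mice it was 0.212 for Mcam, -0.364 for Cspg4 and -0.224 for Ndufa4l2. Among these 7, Rgs5 ran from 565.3 to 890.4 CPM in WB1P and from 1402 to 1460.2 in WB1P-Myc. The r over 7 mice thus also holds the difference between the models. Whether the relation of Ndufa4l2 rested on the 3 other mice cannot be read from it. With each tumor model centred on its own mean, r was 0.970 for Higd1b, 0.928 for Kcnj8 and 0.871 for Ndufa4l2, and 0.537 for Stum.

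A limma-trend fit of all genes on log2 CPM of Rgs5, with the tumor model as a term, put this beside the background. The slope was positive and past the limit for 6 of 9 members, against 0.698% of 14610 genes. These CAF libraries had a share in the choice of the members but not of the other genes. So neither this count, an adjusted p of a slope nor a permutation p above is support, and they are given as a description. It was 1.51 ± 0.13 (SE) for Higd1b (adjusted p 0.00217), 1.23 ± 0.16 for Kcnj8 (0.0143), 1.06 ± 0.13 for Abcc9 (0.00884), 1.06 ± 0.16 for Olfr558 (0.0211), 1.03 ± 0.14 for Esam (0.0152) and 0.86 ± 0.16 for Ndufa4l2 (0.0421). Stum (0.49 ± 0.26, adjusted p 0.494), Mcam (0.63 ± 0.28, 0.399) and Cspg4 (0.28 ± 0.36, 0.824) did not pass.

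The number of calls depended on which mice were kept. It was 5 without mouse 95 (73 of 14781 genes), or without 93, 12, 14, 35, 67 or 69 (56 to 90 genes), and 6 without 23 (102 genes). Ndufa4l2 was lost in all but 1 of 10 such leave-outs, and Higd1b in none. Without WB1P mouse 10 there were 3 members (Higd1b, Abcc9 and Esam) and 31 of 14907 genes, and without WB1P-Myc mouse 21 there was 1 (Higd1b) and 9 of 14816 genes. Without the 2 WB1P-Myc mice marked 8x8 there were 3 members (Higd1b, Kcnj8 and Abcc9) and 35 of 15097 genes, so the calls over all genes fell as well. Without the 3 mice with a single CD26-negative library limma called 0 members and 0 of 14996 genes. Of the 17 further pericyte genes 6 had a positive slope past the limit, Cox4i2, Gucy1a1, Gucy1b1, Gja4, Rgs4 and Trpc6. Of 9 smooth muscle genes 1 did, Synpo2, and 0 of 8 fibroblast, 9 endothelial or 8 immune genes did. Emcn, the most abundant endothelial gene, had an r of 0.828 with Rgs5, near the 0.809 of Rgs4, with a slope of 0.75 ± 0.25 (SE, adjusted p 0.246). For the other endothelial genes r with Rgs5 ran from -0.656 (Tek) and -0.535 (Erg) to 0.490 (Cdh5). The part of Emcn in the variation of Rgs5 was not tested.

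Among all 45 pairs of members r ran from -0.425 to 0.970 with a median of 0.696, and 14 pairs exceeded 0.9. In Rgs5, Higd1b, Olfr558, Kcnj8, Abcc9 and Esam, grouped after these values were seen, the 15 pairs had r from 0.851 to 0.970. Kcnj8 and Abcc9 lie side by side on chromosome 6 with 16247 bases between them and no annotated gene in the gap. Both lie on the minus strand, Kcnj8 at 142564837 to 142571614 and Abcc9 at 142587862 to 142702315 (GRCm38).

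Genes most like the members were sought among 8866 genes with at least 10 CPM on average in these mice, by r with the members' mean z-scored log2 CPM over 10 mice. They were Ano1 (0.995), Atp1b2 (0.984), Chn1 (0.977), Mylk (0.971), Gjc1 (0.969), Plxnb1 (0.969), Emid1 (0.968), Gucy1b1 (0.967), Rcsd1 (0.965) and Naalad2 (0.964). Ano1, a calcium-activated chloride channel, lay between 45.1 and 428.4 CPM over the mice, and Mylk, the myosin light chain kinase, between 91.8 and 701.6 CPM. Both had lower mean levels in CD26-positive CAFs, at 4.93 and 7.21 CPM. The least like were Snx9 (-0.959), Tpbg (-0.953), Leprot (-0.947), Dnajc25 (-0.938) and Pde4d (-0.930), and 68 of the 8866 genes had r above 0.9. Over the 7 mice with both CD26-negative libraries, r of the 10 most like ran from 0.800 (Naalad2) to 0.974 (Ano1). That of the least like ran from -0.925 (Dnajc25) to -0.655 (Pde4d).

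The last question was whether the members differed between the EN1+ and the -/- sort. In WB1P mice 93, 12, 14 and 35, Rgs5 had 424.9, 407.6, 421.4 and 635.4 CPM in the EN1+ library and 875.5, 717.4, 986.5 and 1159.5 in the -/- library. In WB1P-Myc mice 67, 23 and 69 it had 1289.7, 1457 and 1455 CPM in EN1+ and 1643, 1358 and 1345 in -/-. EN1+ libraries were thus lower in every WB1P pair and in 1 of 3 WB1P-Myc pairs, 5 of 7 in all. In NF mice 82, 49 and 44 Rgs5 had 13.9, 32.8 and 44.7 against 18.6, 31.1 and 41.1 CPM, with no common direction.

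Other members shared this pattern mouse by mouse. EN1+ was below -/- for 10, 9, 10 and 9 of 10 members in WB1P mice 93, 12, 14 and 35, with median ratios of 0.505, 0.648, 0.518 and 0.603. The counts were 9, 1 and 0 of 10 in WB1P-Myc mice 67, 23 and 69, with median ratios of 0.889, 1.23 and 1.33. Mice 23 and 69 carry the mark 8x8, so the mark and the direction cannot be told apart in these 3 pairs. Abcc9 was the member with the narrowest range of ratios in WB1P, from 0.451 to 0.547. Cspg4 went the other way in the sum of mice, higher in EN1+ in 5 of 7 CAF pairs and 3 of 3 NF pairs.

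**Figure D3:**
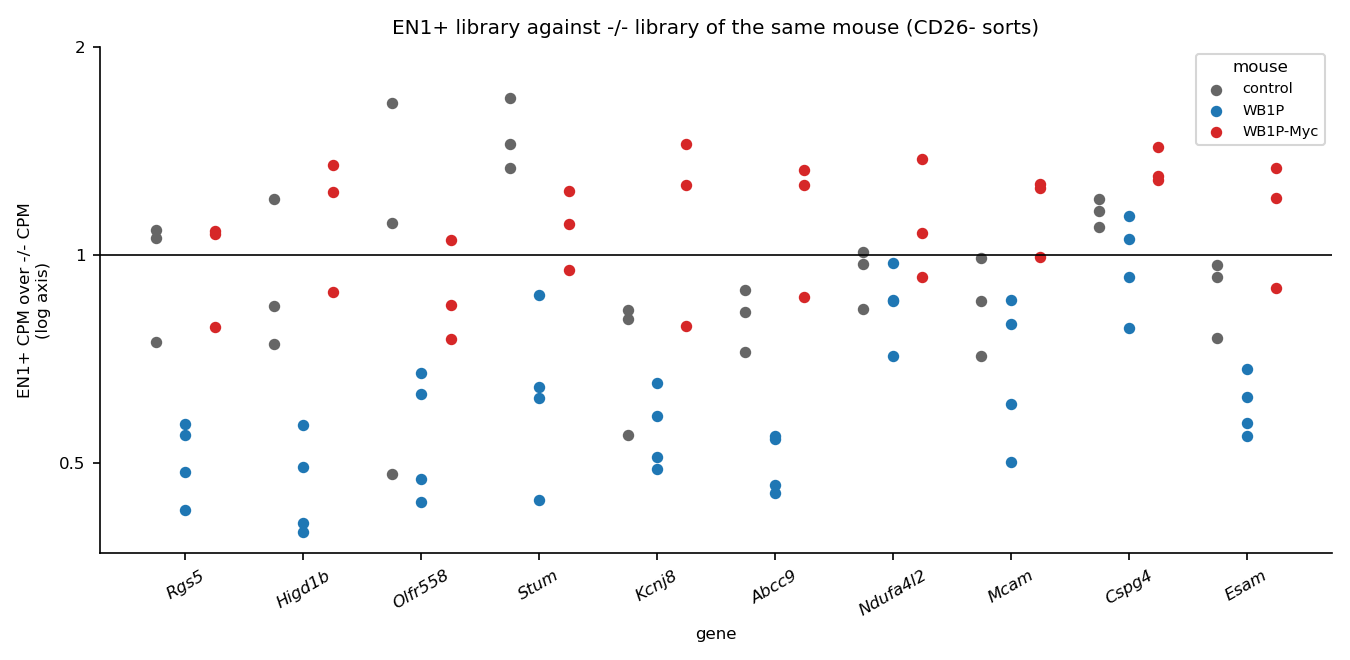
Ratio of the EN1+ library to the -/- library of the same mouse on a log axis, a point per mouse, for the 10 genes in control, WB1P and WB1P-Myc mice; the line marks equal CPM. In the 4 WB1P mice Rgs5 lies between 0.427 and 0.568, and in the 3 WB1P-Myc mice between 0.785 and 1.08.

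By edgeR's test of single libraries 0 of 10 members and 0% of 15584 genes differed between EN1+ and -/- CAFs, and 0 members and 0.00642% of genes between EN1+ and -/- NFs. No member had an unadjusted p under 0.05 in either comparison (0 and 0), against 4.11% and 1.05% of all genes. Of 10 log2 fold changes in CAFs 9 were negative (median -0.39, all genes -0.00780), such as -0.37 ± 0.32 (SE) for Rgs5 and -0.52 ± 0.40 for Abcc9. With the replicate block, which compares the libraries within mice, 6 of 10 members had an unadjusted p under 0.05 in CAFs, against 7.91% of 15584 genes, and 0 members in NFs. They were Rgs5 (-0.52 ± 0.20, p 0.0148), Higd1b (-0.41 ± 0.17, p 0.0245), Olfr558 (-0.50 ± 0.16, p 0.00463), Kcnj8 (-0.49 ± 0.22, p 0.0370), Abcc9 (-0.56 ± 0.26, p 0.0397) and Esam (-0.30 ± 0.14, p 0.0432). None of the 10 passed the limit after adjustment, with adjusted p from 0.331 to 0.978, while 11 genes did. The difference of the EN1 effect between WB1P-Myc and WB1P depended on the pairing. Without pairing, which takes in mice 10, 21 and 95, it was negative for 8 of 10 members (Rgs5 -0.47 ± 0.65, Higd1b -1.18 ± 0.90), the reverse of the ratios above. Within mice it was positive for 10 of 10, such as 0.86 ± 0.39 for Rgs5 (p 0.0383), 1.31 ± 0.34 for Higd1b (p 0.000834) and 0.76 ± 0.28 for Esam (p 0.0115). Within mice 5 members had an unadjusted p under 0.05, against 2.13% of all genes. Past the limit after adjustment were 0 of 10 members and 0 of 15584 genes with either fit.

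How alike the EN1+ and the -/- libraries of a mouse were was followed over the 7 CAF mice with both. Pooled over the models, r between the EN1+ and the -/- value was 0.846 for Rgs5, 0.968 for Cspg4, 0.936 for Olfr558 and 0.926 for Stum. Mcam, Kcnj8, Ndufa4l2 and Esam had pooled r of 0.847, 0.831, 0.801 and 0.754, and Higd1b and Abcc9 0.576 and 0.240. These values hold the difference between the models, so each model was also centred on its own mean and tested over the 144 pairings within models. Rgs5 then fell to 0.428 (exact p 0.444), and WB1P-Myc mouse 67, the lowest of its model in EN1+, was the highest in -/- among these pairs. The centred r was 0.983 for Cspg4 (exact p 0.0208), 0.948 for Mcam (0.0139), 0.879 for Stum (0.0139), 0.863 for Ndufa4l2 (0.0417), 0.855 for Esam (0.00694) and 0.840 for Kcnj8 (0.00694). It was 0.856 for Olfr558 (exact p 0.132), 0.807 for Higd1b (0.118) and 0.703 for Abcc9 (0.146). For each gene, the 2 mice farthest from its own median in the EN1+ libraries were then left out. The pooled r was then 0.960 for Olfr558, 0.908 for Rgs5, 0.848 for Ndufa4l2, 0.822 for Cspg4, 0.755 for Mcam and 0.691 for Stum. It was 0.539 for Kcnj8, 0.372 for Esam, 0.107 for Higd1b and -0.0952 for Abcc9.

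The sequences at the starts of the members were compared, 250 bases before to 50 after the annotated start, from RefSeq (GRCm38.p6). Windows matched 7 of 10 members (Rgs5, Olfr558, Stum, Kcnj8, Abcc9, Mcam and Cspg4), and Higd1b, Ndufa4l2 and Esam had none there. On either strand, TGGGAA, the core bound by the Notch effector RBPJ, was in 3 of 7 windows (Olfr558, Kcnj8 and Abcc9) and in 25.6% of 32851 windows. TGTTTA, a forkhead core, was in 1 of 7 (Rgs5) and 13.4% of windows, and the E-box CANNTG in 6 of 7 and 72.3%. The CArG box and the EBF motif were in 0 of 7, and in 1.63% and 0.904% of windows. None of the TGGGAA and TGTTTA matches overlapped another of these motifs, and a match is a description of letters, not a site.

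Of the 7 windows, those of Rgs5, Olfr558 and the neighbors Kcnj8 and Abcc9 are shown, as these 4 genes varied together over the mice. They are printed 5′ to 3′ on the strand of the gene, and the capitals mark TGGGAA, or TGTTTA read on the other strand (TAAACA). They lie at chr1:169655251-169655550 (plus), chr7:102702073-102702372 (plus), chr6:142571565-142571864 (minus) and chr6:142702225-142702524 (minus).
Rgs5: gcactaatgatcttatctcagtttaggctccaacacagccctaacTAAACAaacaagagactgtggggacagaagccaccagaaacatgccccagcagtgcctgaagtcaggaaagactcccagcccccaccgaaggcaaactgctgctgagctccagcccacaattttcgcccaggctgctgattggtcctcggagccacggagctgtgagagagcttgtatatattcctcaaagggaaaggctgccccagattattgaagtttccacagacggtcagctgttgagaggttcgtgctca
Olfr558: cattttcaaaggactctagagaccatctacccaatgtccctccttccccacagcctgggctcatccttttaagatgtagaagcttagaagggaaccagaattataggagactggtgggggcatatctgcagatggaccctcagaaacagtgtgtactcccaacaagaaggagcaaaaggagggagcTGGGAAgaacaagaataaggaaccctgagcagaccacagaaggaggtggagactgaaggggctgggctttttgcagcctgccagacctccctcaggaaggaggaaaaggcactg
Kcnj8: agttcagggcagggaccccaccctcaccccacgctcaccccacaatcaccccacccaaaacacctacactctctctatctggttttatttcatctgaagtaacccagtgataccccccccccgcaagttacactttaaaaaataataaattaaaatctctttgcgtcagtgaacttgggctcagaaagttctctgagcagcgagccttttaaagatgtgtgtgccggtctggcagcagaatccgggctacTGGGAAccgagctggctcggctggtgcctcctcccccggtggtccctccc
Abcc9: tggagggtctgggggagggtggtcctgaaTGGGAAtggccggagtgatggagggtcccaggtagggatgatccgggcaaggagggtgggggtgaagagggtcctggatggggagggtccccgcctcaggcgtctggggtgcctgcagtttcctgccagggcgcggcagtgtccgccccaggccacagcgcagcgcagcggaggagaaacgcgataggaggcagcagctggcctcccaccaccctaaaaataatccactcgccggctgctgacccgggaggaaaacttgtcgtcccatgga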

How the data were processed

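Stranded polyA libraries of sorted fibroblasts were sequenced in pairs of reads, and the authors deposited counts of reads per gene, with HISAT2 2.2.1 and GRCm38 named for alignment. The counter, the annotation release and the use of strand in counting are not stated. Of 55487 lines, 1 named no gene and held 0 counts. Reads of Ndufa4l2 may be shared with Shmt2 and those of Mcam with Gm10687, which overlap them on the opposite strand. Libraries were summed by mouse and CD26 class, except for EN1+ against -/-.

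Genes were tested with edgeR 4.0.16 (TMM, filterByExpr, quasi-likelihood, two-sided) in R 4.3.3, with Benjamini-Hochberg adjustment over all genes and an adjusted p under 0.05. Slopes used limma 3.58.1 and log2 CPM with a prior count of 2. Correlations used 100000 permutations or exact pairings (scipy 1.17.1). Tests were tried on simulated data. Alternatives were DESeq2 1.42.0, other filters, a mouse block and each mouse left out. The block was a mouse term in edgeR for the CD26 classes of NFs and for EN1+ against -/-. For the other comparisons it was limma-voom with a correlation between the sums of a mouse, so the test changed too. Floors are 3 counts and cover counting error only.

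The members and the lists of pericyte, smooth muscle, fibroblast, endothelial, immune, epithelial, Schwann, skeletal muscle, adipocyte, proliferation, K-ATP, R4 RGS, PDGF, hypoxia and Ndufa4 and Higd1 genes were chosen with earlier results of these data known. All 10 members were named in each comparison, and the genes most and least like them by rank of r.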

Additional observations from a re-analysis of the deposited data

Results flagged for a closer look

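In each tumor model and CD26 class, the gap between the extreme mouse and its neighbor was divided by the range of the group, for 10 genes in 4 groups. Of 40 cases 9 were beyond the 95% limit, 4 in CD26-negative and 5 in CD26-positive CAFs. For independent, normally distributed values chance alone gives about 1 in 20. The ratios were taken on CPM without logs and the genes varied together, so the 9 cannot be set against that rate. Of the 9, 3 came from genes with counts in 1 mouse of the group only, where the ratio is 1 by arithmetic, which leaves 6. With DESeq2 size factors there were 11.

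Mouse 10 was far above the other WB1P mice for Rgs5 (2281 CPM, next 890.4, ratio 0.811) and Higd1b (43.3 CPM, next 16.6, ratio 0.718). Mouse 21 was far above the other WB1P-Myc mice for Kcnj8 (311.3 CPM, next 126.8, ratio 0.730) and Abcc9 (2155 CPM, next 716.4, ratio 0.807). Each had a single CD26-negative library. Within that sort mouse 10 was still high, 2281 CPM of Rgs5 against 407.6 to 635.4 in the other WB1P EN1+ libraries. Mouse 21 had the most Kcnj8 and Abcc9 of the 5 WB1P-Myc -/- libraries.

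Among CD26-positive WB1P mice, Ndufa4l2 was at 212.8 CPM in mouse 12 (next 67.7, ratio 0.877). Mouse 12 had a single CD26-positive library, the shallowest of all at 5790599 counts. Higd1b and Olfr558 in mouse 35 and Stum in mouse 93 had the only counts of their groups, with a ratio of 1 each. Higd1b was at 0.510 CPM in WB1P-Myc mouse 95 (next 0.0417, ratio 0.918), which also had a single CD26-positive library.

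The change of Stum against CD26-negative NFs differed between the models by 2.23 on the log2 scale (adjusted p 0.0204 by edgeR), with every WB1P-Myc mouse above every WB1P mouse. The leave-outs in which the call was lost are named beside that result, and its cause was not tested.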

How the results depend on the processing

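Of 1804 values recomputed, 1702 kept their direction and side of the limit or stayed near their value, 19 lost the limit, 14 passed it, 43 moved and 26 changed sign, all 26 for single genes. The settings without the 3 mice with a single CD26-negative library, without the 2 mice farthest in Rgs5, the EN1+ or -/- libraries alone in the fold changes, and the leave-outs of the slope and of the library agreement, its centring within models and the EN1 effect by model within mice were chosen after seeing the data. The cause of a change was not tested, except that the leave-outs held fewer mice.

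Members past the limit between CD26 classes of NFs were 2 with DESeq2's Wald test, 4 with the block and 0 in a fit on the compared groups. Between the models they were 2 with the Wald test, 2 with the block, and 0 on the compared groups, without the 3 single-library mice, or in -/- libraries alone. In CD26-positive CAFs against NFs they were 2 with the block and 2 with an absolute log2 fold change over 2. Members with a slope on Rgs5 were 3 without the 8x8 mice and 0 without the 3 single-library mice. The median r with Rgs5 was 0.892 in -/- libraries, 0.812 over 7 mice and 0.868 without the 2 farthest.

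With single mice left out, members past the limit ranged from 0 to 1 between CD26 classes of NFs, 6 to 7 in WB1P and 7 to 7 in WB1P-Myc against NFs of the 7 not set by the filter (25.6 to 37.2% and 25.3 to 39.7% of all genes in either direction), 0 to 2 between the models, 2 to 6 in CD26-positive CAFs and 0 to 0 for both EN1 comparisons. The slope gave 1 to 6 members, and Ndufa4l2 was lost in all but 1 of 10 leave-outs, the median r ran from 0.898 to 0.949, the library agreement of Rgs5 from 0.821 to 0.888 (0.428 centred within models), and the median log2 fold change of the contrast that chose the genes from 5.48 to 5.88.

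In fits with mouse as replicate block, 68 of 79 values kept their call. Comparisons within mice used edgeR with mouse as a term. The others set different mice against each other and used limma-voom, so the block and the change of test cannot be told apart in them. CD26-negative against CD26-positive NFs gave Rgs5 2.21, Ndufa4l2 2.44 and Mcam 1.71 (log2), which passed as did Olfr558, from whose call nothing is read. Abcc9 changed sign to -0.10. Between the models Olfr558 passed with 1.69, and in CD26-positive CAFs Stum (-1.77) and Esam (-1.36) did not pass. Rgs5 in EN1+ against -/- NFs changed sign to -0.022. The block changed no other call of a member. CD26 sums of a mouse correlated within pairs at a median r of 0.444 (12 pairs) and EN1 libraries at 0.651 (7 pairs), after subtracting group means, and the consensus correlation was 0.449.

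Other values changed sign as follows (log2, with the range over mice left out). Between CD26 classes of NFs, Abcc9 was -0.51 without control mouse 49 (-0.51 to 0.45) and Cspg4 0.18 without 82 (-0.47 to 0.18). Between the models, Ndufa4l2 was 0.087 without the 8x8 mice, 0.18 in -/- libraries, 0.29 without WB1P mouse 10, 0.060 without WB1P-Myc mouse 67 and 0.067 without 69 (-0.42 to 0.29). In EN1+ against -/- CAFs, without mouse 21, Kcnj8 was 0.043 (-0.69 to 0.043), Ndufa4l2 0.094 (-0.29 to 0.094) and Mcam 0.053 (-0.34 to 0.053). Ndufa4l2 was 0.017 without 35 and Cspg4 -0.15 without 23 (-0.15 to 0.20). In EN1+ against -/- NFs, Rgs5 was -0.014 without mouse 49 and -0.072 without 44 (-0.072 to 0.12), Higd1b 0.029 without 44 (-0.38 to 0.029), Olfr558 -0.54 without 49 (-0.54 to 0.59) and Ndufa4l2 0.0054 without 82 (-0.14 to 0.0054). Pearson's r with Rgs5 was -0.224 for Ndufa4l2 over 7 mice, against 0.625 over 10, and leaving out a single mouse did not turn it. For Cspg4 it was 0.042 on raw totals, 0.020 in -/- libraries, 0.242 centred within models, and 0.018, 0.119 and 0.007 without WB1P mice 93, 12 and 35 (-0.160 to 0.119).

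Counts were few for Higd1b, Olfr558 and Stum in NFs and CD26-positive CAFs, so their values there rest on few counts. With 3 NF mice, single control mice changed calls. Expression was measured in sorted pools, so no cell was assigned a type. Pooling of control mice, the counter and the strand of counting are not stated.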
